A study of Homo sapiens with 16 samples.

Results

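The estradiol response of T-47D breast cancer cells was read from 4 of the 16 RNA sequencing libraries of the study, the 2 treated with 10 nM 17β-estradiol and the 2 treated with 0.02% DMSO, the solvent control. T-47D is an established line of luminal, estrogen receptor-positive breast cancer cells. Before treatment both groups spent 5 days in a medium poor in steroids (RPMI-1640 that lacked phenol red, with 10% charcoal-treated serum). They were then treated for 8 h and lysed in 100 mm dishes. The comparison therefore starts from cells deprived of estrogen and reads 1 dose and 1 time. The other 12 libraries hold T-47D cells given bisphenol A or genistein, and ECC-1 endometrial cancer cells given the same 4 treatments, with 2 libraries in each group. They entered the estimate of the spread, and the ECC-1 estradiol and DMSO libraries entered the comparison of the lines. The labels do not say whether replicate libraries come from separate cultures, so p-values measure only the spread between these libraries.

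Estradiol diffuses into the cell and binds estrogen receptor alpha, the product of ESR1, which then binds DNA at estrogen response elements, often far from genes, and recruits coactivators or corepressors. In luminal breast cells the pioneer factors FOXA1 and GATA3 hold many of these sites open. The receptor is known in such cells for raising genes of growth and secretion, among them MYC, PGR and GREB1, and for lowering others, such as ERBB2.

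Polyadenylated RNA had been made into libraries that keep no strand, so overlapping and antisense genes cannot be told apart. Levels are given as RPKM, reads per M reads and per kilobase of transcript, which takes account of transcript length, divided by a scale factor per library (scaled RPKM). Depth, as judged by the spacing of low values, was 17.94 to 25.54 M reads in these 4 libraries, so that 1 RPKM on a transcript of 2 kb rests on 35.9 to 51.1 reads. All 10 luminal breast markers stood above 1 scaled RPKM in all 4 libraries. The 5 endometrial markers summed to 0.526 to 0.624 and HOXA10 was at 0 throughout. Leukocyte markers summed to 1.40 to 2.06, endothelial markers to 0.0846 to 0.223, basal markers to 11.7 to 16.6 and fibroblast markers to 16.9 to 31.8. Most of the fibroblast sum was COL1A1, at 18.1 and 18.4 in the DMSO libraries and 30.5 and 15.5 in the estradiol libraries.

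The first estradiol library stood apart. Its median correlation across genes with the other T-47D libraries was 0.9801, against 0.9893 to 0.9939 for the other 7. The log2 difference between the 2 estradiol libraries ran with the G+C content of the transcript (Spearman 0.71 across 13010 genes, which are not independent replicates). Its median went from -0.56 in transcripts under 36% G+C to 0.48 in those of 64% and over. The same correlation between the DMSO libraries was -0.01. With transcript length, library 1 minus library 2 ran at Spearman -0.31 for estradiol and -0.35 for DMSO. Taken against the DMSO mean, the first estradiol library ran with G+C content at Spearman 0.6 and the second at -0.26. Counts of changed genes are therefore also given without the first estradiol library where leaving it out changes them, or the p-values of the genes concerned are. Counts with length and G+C trends removed from each library, an alternative chosen after seeing the data, stand together after the gene lists. Counts without the first estradiol library rest on the second, so they are not free of a trend with G+C content. The part of base composition in any single result was not tested. In RNA from whole dishes, fewer cells of a type and less RNA per cell cannot be told apart.

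**Figure D1:**
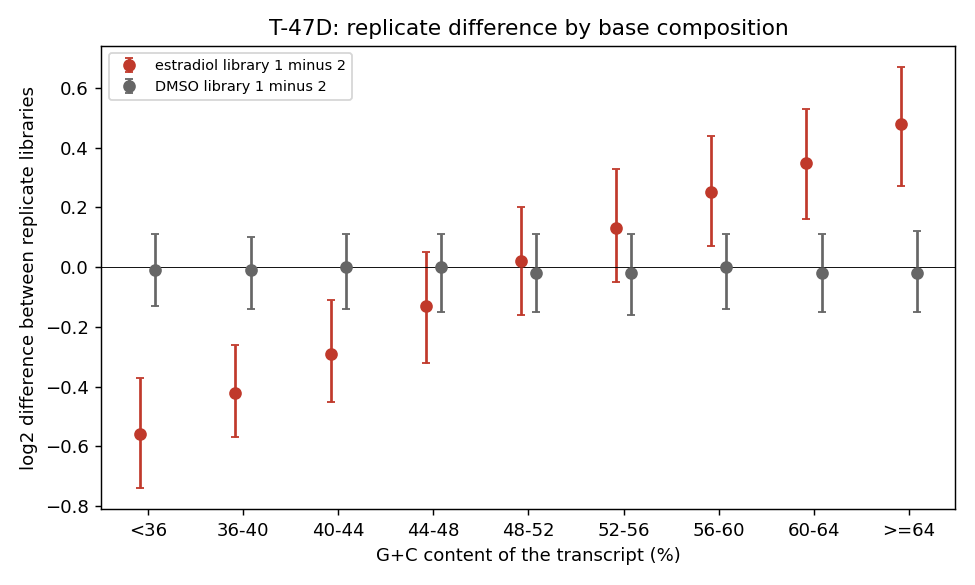
Log2 difference between replicate libraries (vertical axis) by G+C content of the transcript in percent (horizontal axis), for the 2 estradiol libraries in red and the 2 DMSO libraries in grey. Points are medians over genes and bars run from the lower to the upper quartile. The estradiol medians climb from -0.56 to 0.48, and the DMSO medians stay between -0.02 and 0.

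More genes were called higher than lower after 8 h of estradiol, and the rises were larger. Of 13827 genes tested with limma on log2(scaled RPKM + 0.5), 445 (3.22%) passed a Benjamini-Hochberg adjusted p of 0.05, 291 of them higher (2.10%) and 154 lower (1.11%). The median change was 0.94 on the log2 scale among the higher genes and -0.70 among the lower ones, against -0.01 over all tested genes. There were 16 rises of more than 2 on the log2 scale and no such fall. The pseudocount of 0.5 makes these changes smaller than the ratio of the levels in genes near or under 1 scaled RPKM. Both estradiol libraries lay outside the range of the DMSO libraries for all 445, as they did above the DMSO range in 16.9% and below it in 16.4% of all tested genes.

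The count depended on single libraries. It was 238 without the first DMSO library (165 higher and 73 lower), 160 without the second (131 and 29), 279 without the first estradiol library (194, or 1.4%, and 85, or 0.615%) and 3131 without the second (1555 and 1576), the fit of these 4 in which falls outnumbered rises. Of the 291 rises, 167 were also called without the first estradiol library and 115 in each of these 4 fits. Of the 154 falls, 60 and 20 were. Transcripts of the higher genes had a median G+C content of 53.6% and those of the lower genes 45.6%, against 49.4% over all tested genes. Without the first estradiol library the medians were 50% and 50.9%. Below, each gene described as raised or lowered kept its call in all 4 of these fits unless stated otherwise beside it. Such a statement gives adjusted p-values without a library or the end of the call. Shares of gene lists stand against 2.1% higher and 1.11% lower over all tested genes, and in a short list 1 call can exceed these. Testing required 1 RPKM in 2 of the 16 libraries. A gene low elsewhere could thus enter through its 2 estradiol libraries alone, which can raise a share called higher. List counts without a library are to be read against the count over all tested genes in the same fit. That count grew strongly without the second estradiol library.

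**Figure D2:**
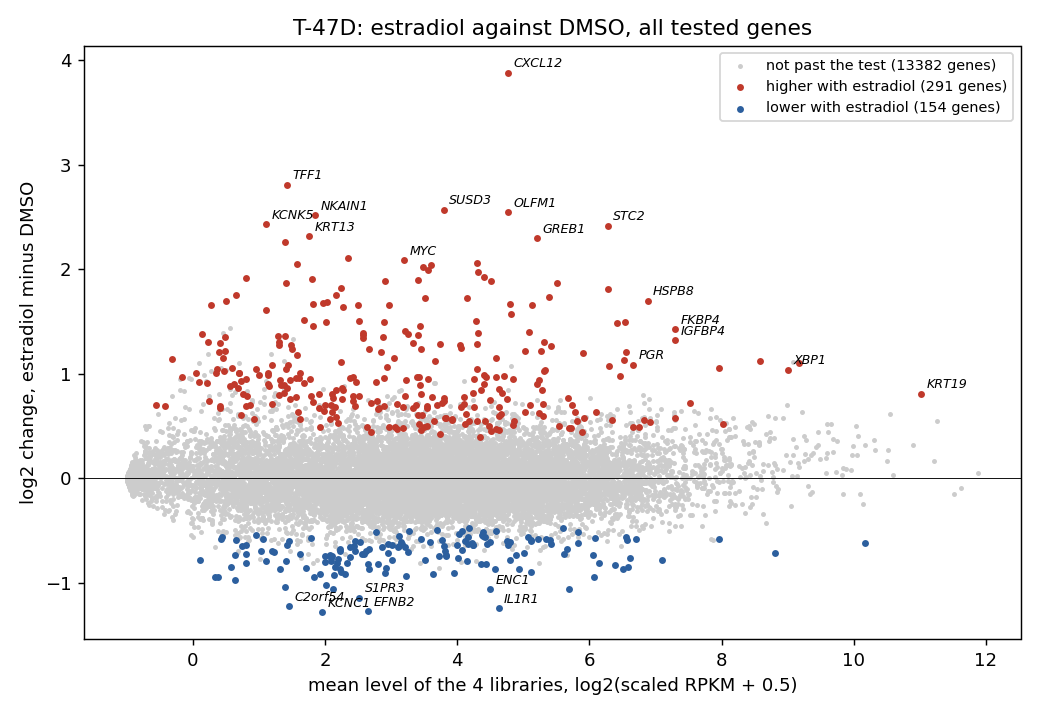
Log2 change from DMSO to estradiol in T-47D (vertical axis) against the mean level of the 4 libraries as log2(scaled RPKM + 0.5) (horizontal axis), 1 point per tested gene. The 291 genes called higher are red, the 154 called lower blue and the other 13382 grey. The red points reach 3.88 for CXCL12, while the lowest blue point, KCNC1, stands at -1.28.

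The estrogen receptor gene itself did not pass the test. ESR1 stood at 28.1 and 34.7 scaled RPKM in the DMSO libraries and 31.4 and 43.8 in the estradiol libraries, ranges that overlap (log2 change 0.24, SE 0.176, limma adjusted p = 0.558). PGR, the progesterone receptor gene and a textbook target of the estrogen receptor, stood at 58.4 and 68.5 in DMSO and 113.0 and 162.7 with estradiol. It was already abundant without hormone and rose by a log2 change of 1.09 (SE 0.184, adjusted p = 0.00284). RARA, which encodes retinoic acid receptor alpha, went from 25.3 and 26.0 to 58.5 and 48.2 (log2 change 1.04, adjusted p = 0.00174). NR3C2, the mineralocorticoid receptor gene, fell by 0.54 on the log2 scale, from 1.72 and 1.85 to 1.07 and 1.07. Its adjusted p of 0.0441 became 0.141 and 0.337 without DMSO library 1 or 2 and 0.129 without the first estradiol library. These 3 were the receptors called among 17 tested of 22 steroid and retinoid receptor genes, 2 higher (11.8%) and 1 lower (5.88%). The median change of the list was -0.16. ESR2, the gene of estrogen receptor beta, was too low to be tested, at 0.247 and 0.107 against 0.507 and 0.478.

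Of 31 coregulator genes 2 were higher (6.45%) and 1 lower (3.23%), with a median of -0.13, and of -0.05 without the first estradiol library. Leaving out either DMSO library or estradiol library 1 gave 2 higher and 0 lower. GREB1, which encodes a chromatin-bound partner of the estrogen receptor, stood at 11.2 and 12.8 in DMSO and 64.5 and 57.2 with estradiol. It rose 4.92-fold on the log2(scaled RPKM + 0.5) scale (log2 change 2.30, SE 0.212, adjusted p = 1.57e-05). CITED1, the gene of a transcriptional coactivator, went from 0.288 and 0.141 to 2.13 and 1.70 (log2 change 1.76, adjusted p = 1.87e-05). Among T-47D libraries CITED1 reached 1 RPKM only with estradiol. It may have entered the test through its rise alone, and the share of 6.45% includes it. FOXA1 stood at 104.4 and 139.0 with estradiol against 171.0 and 170.6 in DMSO (log2 change -0.50, adjusted p = 0.0503) and GATA3 at 238.8 and 273.0 against 264.7 and 335.8 (adjusted p = 0.667). Neither passed the test, though both FOXA1 values were below both DMSO values.

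Of the 16 leading rises, 5 were in genes of secreted proteins. CXCL12, the chemokine that signals through CXCR4 and CXCR7, stood at 3.85 and 2.26 scaled RPKM in DMSO and 51.6 and 49.3 with estradiol. This was the largest change of the 445 genes, 14.7-fold on the log2(scaled RPKM + 0.5) scale (log2 change 3.88, 95% interval 3.41 to 4.35, adjusted p = 3.14e-07). TFF1, the trefoil factor first known as pS2, was listed at 0.392 and 0 in DMSO and rose to 4.40 and 3.97 (log2 change 2.81, SE 0.304, adjusted p = 6.13e-05). Even with estradiol it stayed at a low level in these cells. OLFM1, which encodes a secreted olfactomedin, stood at 8.40 and 6.34 in DMSO and 36.2 and 56 with estradiol. The 2 estradiol values differ, and both lie far above the DMSO range (log2 change 2.55, SE 0.21). STC2, the gene of the glycoprotein stanniocalcin 2, went from 28.5 and 20.1 to 133.4 and 126.0 (log2 change 2.42, SE 0.196). PGLYRP2, which encodes a peptidoglycan-cleaving amidase, went from 1.03 and 0.369 to 4.64 and 3.93 (log2 change 2.05, SE 0.197).

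The other leading rises were in genes of membrane and intracellular proteins. SUSD3, the gene of a sushi-domain membrane protein, went from 3.87 and 3.11 to 25.9 and 20.6 (log2 change 2.57, adjusted p = 4.18e-05). NKAIN1, which encodes a protein that interacts with the sodium pump, went from 0.496 and 0.634 to 4.63 and 6.70 (2.52, adjusted p = 7.79e-07). KRT13, a keratin gene, stood at 0.580 and 0.681 in DMSO and 5.49 and 4.78 with estradiol (2.32, adjusted p = 7.79e-07). These 3 genes were low without hormone and none of their estradiol values came near the DMSO range. A lack of overlap was a condition for all leading rises. SLC47A1, the gene of an organic cation efflux transporter, went from 0.328 and 0.482 to 3.34 and 4.38 (2.26). PTGES, the prostaglandin E synthase gene, stood at 7.92 and 6.28 in DMSO and 26.8 and 35.8 with estradiol (2.06, adjusted p = 4.49e-06). FMN1, which encodes an actin-nucleating formin, went from 4.49 and 4 to 19.8 and 18.3 (2.04), and SGK3, a kinase gene of the AKT-related SGK family, from 4.52 and 3.38 to 15.2 and 19.9 (2.02). GREB1, described above with the coregulators, is also among the 16. MYC, KCNK5 and KCNH1 complete them and are described with their families below.

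**Figure D3:**
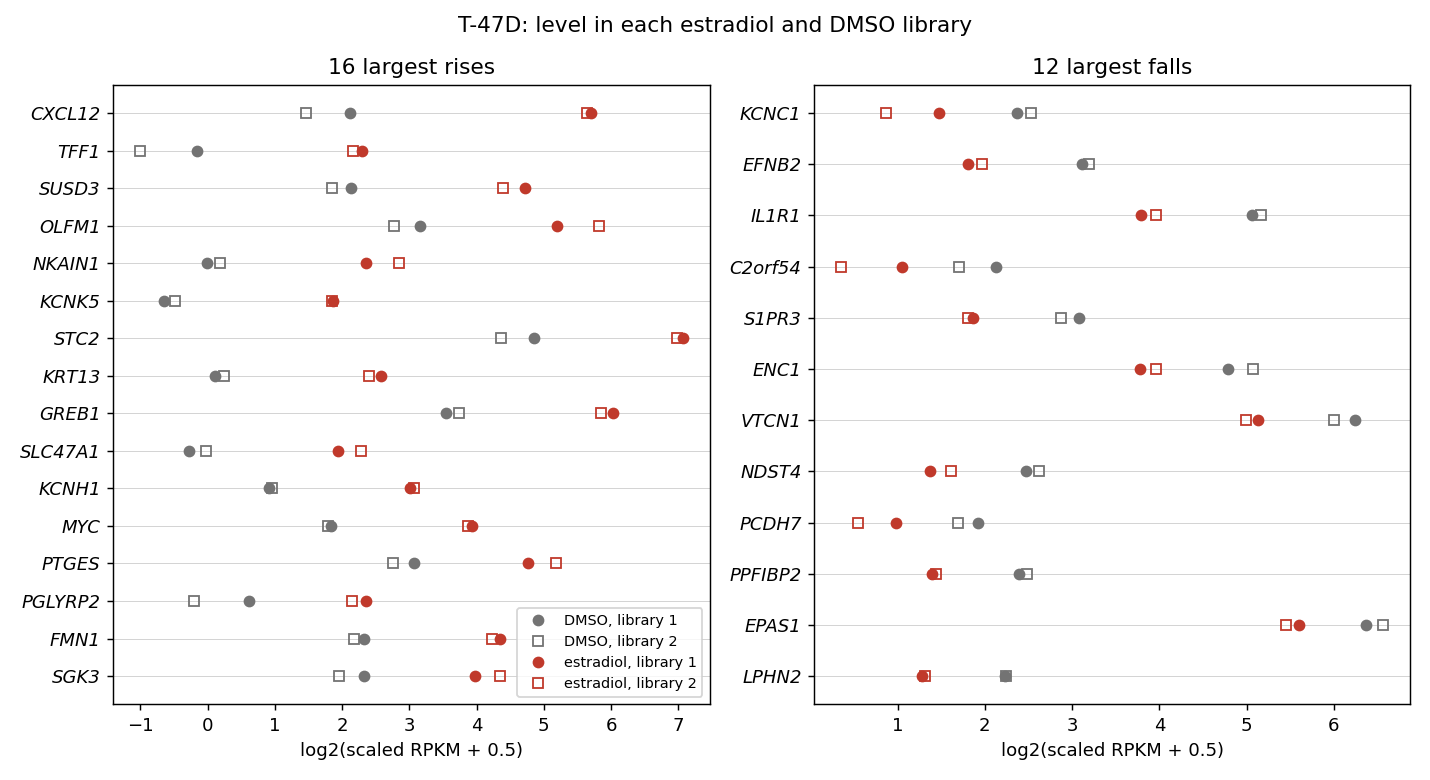
Level of the 16 largest rises (left) and 12 largest falls (right) in each T-47D library, as log2(scaled RPKM + 0.5) on the horizontal axis, with genes in order of their change. Grey marks are DMSO and red marks estradiol, with circles for the first and squares for the second library. The genes were chosen so that both red marks lie on 1 side of both grey marks, and CXCL12 shows the largest change (3.88).

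The windows just upstream of these genes were searched for the sequence the receptor is known to bind. The full palindrome GGTCANNNTGACC was in none of the 212 RefSeq promoters of higher genes (300 bases each, from 250 before to 50 after the start, GRCh38.p14), in none of 111 of lower genes and in 1 of the 10784 of tested genes. The single hexamer AGGTCA, on either strand, was in 12.3% of promoters of higher genes, 9.91% of lower genes, 9.98% of all tested genes and 13.9% of all 27305 promoters of the table. Of the 31 leading and panel genes called, 24 had a promoter in the table and 3 held the hexamer before the start. Their stretches are shown because they are the places where members of these groups carry these letters, in capitals, on the strand of the gene or its complement (TGACCT). CXCL12 has a match that begins 209 bases before the start, PDZK1 69 and PGLYRP2 128 and 75. A match describes the letters only, and whether the receptor binds there was not tested.
CXCL12, chr10:44385271-44385330, minus strand: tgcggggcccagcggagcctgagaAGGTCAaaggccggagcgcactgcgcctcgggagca
PDZK1, chr1:145707434-145707493, minus strand: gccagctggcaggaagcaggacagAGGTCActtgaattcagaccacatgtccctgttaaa
PGLYRP2, chr19:15479541-15479653, minus strand: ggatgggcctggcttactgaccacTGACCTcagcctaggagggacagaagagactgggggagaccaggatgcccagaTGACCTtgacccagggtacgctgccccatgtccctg

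Genes with a record of induction by estrogen in breast cancer cells mostly rose. They were listed with earlier results of these data known, so their share is no independent check. Of the 48 listed, 41 were tested, and 30 were higher (73.2%), none lower, with a median change of 1.08. The count was 27 without the first estradiol library, 27 and 22 without DMSO library 1 or 2, and 32 without the second estradiol library. Besides the leading genes, HSPB8, which encodes a small heat shock protein, stood at 54.5 and 55.6 in DMSO and 184.3 and 175.6 with estradiol (log2 change 1.70, adjusted p = 2.28e-05). Chosen after their values were seen, CTSD, the gene of the lysosomal protease cathepsin D, rose from 242.3 and 238.1 to 527.7 and 520.9 (1.12). SIAH2, which encodes a ubiquitin ligase, rose from 24.6 and 24.4 to 58.2 and 61.4 (1.27). SLC9A3R1, which encodes the scaffold NHERF1, rose from 161.2 and 160.1 to 349.4 and 323.4 (1.06). Replicates of these 3 genes lay close together in both groups. Members that did not pass include AGR2 (334.0 and 227.3 against 387.5 and 385.7, adjusted p = 0.21) and TFF3 (22.3 and 13.5 against 41.9 and 33.1, adjusted p = 0.0775). The other 7 of the list, CALCR, EGR3, TUBA3D, TUBA3E, IL20, GFRA1 and NBPF4, were too low to be tested.

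PDZK1, which encodes a scaffold of membrane transporters, stood at 2.15 and 1.59 in DMSO and 6.57 and 7.10 with estradiol (log2 change 1.64, adjusted p = 2.42e-05). Its copy PDZK1P1, a pseudogene named here after its values were seen, went from 1.05 and 0.903 to 3.11 and 3.46 (1.36). No source used here gives how reads that match both were counted, so the share of each is uncertain. CYP1A1, a target of the aryl hydrocarbon receptor rather than of the estrogen receptor, stood at 4.91 and 6.24 in DMSO and 4.20 and 2.34 with estradiol (adjusted p = 0.469).

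Genes with a record of repression by estrogen showed the opposite sign. This list too was drawn up with earlier results of these data known, so its share is no independent check. Of 24 listed, 23 were tested, and 8 were lower (34.8%), none higher, with a median of -0.49 and 20 negative changes. Without the second DMSO library 3 passed, and 6 without either the first DMSO or the first estradiol library. IL1R1, the interleukin 1 receptor gene, stood at 32.9 and 35.4 in DMSO and 13.3 and 15.1 with estradiol (log2 change -1.24, SE 0.174, adjusted p = 0.000572). ENC1, which encodes an actin-binding kelch protein, went from 27.1 and 33.2 to 13.2 and 15.1 (-1.06, adjusted p = 0.000404). EPAS1, the gene of hypoxia-inducible factor 2 alpha, went from 81.9 and 94.3 to 47.9 and 43.1 (-0.94, adjusted p = 0.0016). In each of the 3 the groups were well apart, and a lack of overlap was a condition for these leading falls. ERBB2, the HER2 receptor gene, was lower, at 113.4 and 87.3 against 153.8 and 191.3 (-0.78, adjusted p = 0.0159, and 0.251 without the second DMSO library). MUC1 (209.8 and 252.0 against 222.9 and 200.7) and TXNIP (62.1 and 63.9 against 52.6 and 93.9) did not pass.

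The remaining leading falls came from several families. KCNC1, a voltage-gated potassium channel gene, stood at 4.68 and 5.26 in DMSO and 2.28 and 1.33 with estradiol (log2 change -1.28, SE 0.168, adjusted p = 0.000332). EFNB2, the ephrin B2 ligand gene, went from 8.13 and 8.62 to 2.99 and 3.40 (-1.27, SE 0.166). S1PR3, a sphingosine 1-phosphate receptor gene, went from 7.98 and 6.82 to 3.15 and 2.99 (-1.14, SE 0.164). Each had its 2 estradiol values under the lower DMSO value, as the choice of the leading falls required. VTCN1, which encodes the inhibitory T-cell ligand B7-H4, stood at 75.4 and 63.4 in DMSO and 34.5 and 31.3 with estradiol (-1.06, SE 0.171). The heparan sulfate sulfotransferase gene NDST4 went from 5.05 and 5.64 to 2.08 and 2.55 (-1.06), and the protocadherin gene PCDH7 from 3.29 and 2.73 to 1.47 and 0.966 (-1.04). The liprin gene PPFIBP2 went from 4.74 and 5.08 to 2.12 and 2.22 (-1.02), and the latrophilin gene LPHN2 from 4.18 and 4.24 to 1.92 and 1.99 (-0.94). C2orf54, an open reading frame, went from 3.88 and 2.76 to 1.57 and 0.779 (-1.22, adjusted p = 0.00452, and 0.0708 without the first DMSO library). The falls were smaller than the rises: the largest was 2.43-fold on the log2(scaled RPKM + 0.5) scale.

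In the insulin-like growth factor system 3 of 16 tested genes were higher (18.8%) and 1 lower (6.25%). IGFBP4, which encodes a secreted binding protein that holds the growth factor, stood at 88.0 and 90.3 in DMSO and 231.4 and 216.1 with estradiol (log2 change 1.32, SE 0.135, adjusted p = 3.33e-05). STC2, listed here because stanniocalcin 2 inhibits the protease that cleaves IGFBP4, is given above. IRS1, the adaptor below the receptor, was higher at 4.70 and 4.19 against 2.32 and 2.80 (0.70, adjusted p = 0.0478). The call ended without the first (0.291) or second (0.148) DMSO library or estradiol library 1 (0.218). IGFBP3 was lower, at 0.225 and 0.366 against 0.730 and 1.00 (-0.78, adjusted p = 0.00817, 0.169 without the second DMSO library and 0.0664 without the first estradiol library). The receptor gene IGF1R, named here after its values were seen, stood at 13 and 18.8 in DMSO and 20.8 and 19.2 with estradiol (adjusted p = 0.399). IGFBP5 was the most abundant member and its groups overlapped (432.6 and 564.6 against 551.2 and 550.8).

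In the EGF family 2 ligand genes rose and 1 receptor gene fell. TGFA, the gene of transforming growth factor alpha, went from 3.03 and 2.99 to 5.74 and 7.01 (log2 change 0.96, SE 0.122, adjusted p = 0.000234). AREG, the amphiregulin gene, went from 5.84 and 4.56 to 10.2 and 17.5 (1.30, SE 0.267, adjusted p = 0.0137, and 0.19 without the second DMSO library). Both ligands signal through EGFR, whose own gene stood at 9.23 and 14.2 in DMSO and 7.87 and 8.37 with estradiol and did not pass (adjusted p = 0.352). Of the 13 tested members these 2 were higher (15.4%) and ERBB2 lower (7.69%). ERBB3 did not pass, at 108.7 and 125.5 against 144.5 and 170.1 (-0.42, adjusted p = 0.0948).

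RET and a ligand of its family rose together. RET, the receptor tyrosine kinase of the GDNF family, stood at 0.363 and 0.308 in DMSO and 1.29 and 1.62 with estradiol (log2 change 1.22, SE 0.139, adjusted p = 9.43e-05). ARTN, the artemin gene, stood at 1.69 and 1.02 in DMSO and 8.08 and 3.51 with estradiol (1.69, SE 0.264, adjusted p = 0.00156). The 2 estradiol values of ARTN differ more than 2-fold, and its change was 1.14 without the first estradiol library. These were the 2 higher genes of 4 tested in this list of 10. Among T-47D libraries RET reached 1 RPKM, the level required in 2 libraries for testing, only with estradiol. It may have entered the test through its rise alone, so this count is no measure of the family. The coreceptor genes GFRA1 and GFRA3 were near 0 in the 4 libraries, between 0.0436 and 0.165 for GFRA1 and between 0.0295 and 0.101 for GFRA3.

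Of 19 FGF receptor and MAP kinase feedback genes tested, 3 were lower (15.8%) and 1 higher (5.26%). DUSP10, the gene of a phosphatase of the stress kinases, went from 4.73 and 4.78 to 2.53 and 2.83 (log2 change -0.73, SE 0.121, adjusted p = 0.00255). SPRY1 (5.82 and 5.28 against 2.62 and 2.98, -0.87) and FGFR4 (32 and 31.4 against 24.6 and 17.5, -0.60) were also lower. Both calls ended without DMSO library 1 (0.184 and 0.211) or DMSO library 2 (0.162 and 0.267). That of SPRY1 also ended without the first estradiol library (0.162) and that of FGFR4 without the second (0.0901). Leaving out either DMSO library left 1 fall in the list. DUSP4, a phosphatase gene for ERK, was higher at 3.05 and 3.71 against 1.90 and 1.15 (0.96, adjusted p = 0.0393). It passed without the first DMSO library (0.0366) and missed the threshold without the second (0.468) or without the first (0.0902) or second (0.0559) estradiol library.

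Among chemokines CXCL12 was the only gene called higher and CXCR7 the only one lower, of 9 tested (11.1% each). CXCR7, the decoy receptor for CXCL12 also known as ACKR3, stood at 1.53 and 1.55 in DMSO and 0.359 and 0.763 with estradiol (log2 change -0.97, adjusted p = 0.00547). Its adjusted p was 0.0588 without the second DMSO library and 0.0674 without the first estradiol library. CXCR4, the signalling receptor, varied between replicates (4.24 and 1.66 against 0.947 and 2.21, adjusted p = 0.501). Of 22 interleukin and cytokine receptor genes, IL1R1 and IL4R were lower (9.09%) and IL6ST was higher (4.55%). IL6ST, which encodes the shared receptor chain gp130, stood at 46.4 and 51.1 in DMSO and 76.9 and 138.7 with estradiol (1.08, adjusted p = 0.0149). Its call ended without the first (0.11) or second (0.0859) DMSO library. IL4R went from 13.8 and 14.0 to 10.4 and 7.68 (-0.61, adjusted p = 0.0262, 0.122 and 0.207 without DMSO library 1 or 2). The prolactin receptor gene PRLR was among the most abundant members, and its groups overlapped (314.3 and 409.8 against 272.0 and 421.6).

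MYC, the transcription factor gene known for driving ribosome production and growth, stood at 3.07 and 2.95 in DMSO and 14.7 and 14.1 with estradiol. Replicates nearly coincided, and the rise was 4.25-fold on the log2(scaled RPKM + 0.5) scale (log2 change 2.09, SE 0.157, adjusted p = 2.99e-06). Of its 14 listed network genes TFAP4, itself a known target of MYC, was the other call, from 0.631 and 0.463 to 1.34 and 1.5 (0.88, adjusted p = 0.00153). The partner gene MAX stood at 18.0 and 18.6 against 20.8 and 19.6 and did not pass (adjusted p = 0.574). Of 21 immediate early genes 1 was called at 8 h (4.76%). That was IER3, at 29.9 and 21.4 against 62.5 and 43.6 (1.03, adjusted p = 0.0191, 0.284 without the second DMSO library and 0.169 without the first estradiol library). FOS, named here after its values were seen, stood at 1.02 and 0.759 against 1.76 and 1.89 (adjusted p = 0.135).

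Changes of ribosome biogenesis genes were small and mostly positive. Of 88 tested, 15 were higher (17.0%) and none lower, 81 changes were positive and the median was 0.33. NOP56, a core protein of the box C/D ribonucleoprotein that modifies ribosomal RNA, stood at 39.6 and 34.8 in DMSO and 67.2 and 59.8 with estradiol (log2 change 0.77, SE 0.125, adjusted p = 0.00223, 0.057 without the second DMSO library). RRS1, a factor of the large ribosomal subunit, stood at 7.77 and 6.72 against 20.4 and 10.2 (0.95, adjusted p = 0.0219), with estradiol values that differ about as much as the groups do. Its adjusted p was 0.0684 and 0.234 without DMSO library 1 or 2 and 0.0873 without the first estradiol library. BOP1, another factor of large subunit assembly, behaved alike (16.8 and 16.6 against 40.8 and 23.1, log2 change 0.86, adjusted p = 0.0372). Its call ended in the same 3 fits, with log2 changes of 0.87, 0.85 and 0.46. The nucleolar proteins NPM1 (503.5 and 439.6 against 576.8 and 651.6) and NCL (106.5 and 100.7 against 167.3 and 135.9) did not pass, at adjusted p-values of 0.315 and 0.0676. The count of 15 became 4 without the first DMSO library, 0 without the second, 4 without the first estradiol library and 36 without the second. The median was 0.25 without the first estradiol library and 0.31 with length and G+C trends removed.

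Genes of nucleotide and one-carbon synthesis held 5 higher of 28 (17.9%) and none lower. Their median was 0.15, and 0.26 without the first estradiol library. CTPS, the CTP synthase gene, went from 6.62 and 5.31 to 10.8 and 9.33 (log2 change 0.71, SE 0.126, adjusted p = 0.00452, 0.118 without the second DMSO library). PAICS, a purine synthesis enzyme gene, went from 41.1 and 35.0 to 51.7 and 56.1 (0.50, adjusted p = 0.0219, 0.343 without that library). IMPDH2, the enzyme gene of the step to guanine nucleotides, went from 99.2 and 96.8 to 150.7 and 134.4 (0.54, adjusted p = 0.021). Its adjusted p was 0.102 and 0.2 without DMSO library 1 or 2 and 0.104 without the first estradiol library. The count of 5 became 3 without the first DMSO or first estradiol library, 0 without the second DMSO library and 10 without the second estradiol library. Of 22 aminoacyl-tRNA synthetase genes, 2 were higher (9.09%). AIMP2, the gene of a scaffold of the synthetase complex, stood at 51.9 and 41.5 against 35.1 and 26.5 (log2 change 0.60, adjusted p = 0.0393, 0.505 without the second DMSO and 0.242 without the first estradiol library). YARS, the tyrosyl-tRNA synthetase gene, stood at 25.8 and 25.3 against 18.2 and 17.7 (0.50, adjusted p = 0.0331). The call of YARS ended without the first (0.139) or second (0.265) DMSO library or estradiol library 1 (0.095).

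Of 73 ribosomal protein genes, none passed the limma test, yet all 73 changes were positive, with a median of 0.44. Their summed level was 21735 and 20621 scaled RPKM in DMSO and 31493 and 25022 with estradiol. The median difference between the first and second estradiol library over these genes was 0.36, close to the size of the change. Without the first estradiol library the median change was 0.25, and without the second 34 of the 73 passed. RPLP0, for example, stood at 1020 and 1032 in DMSO and 1384 and 1180 with estradiol (adjusted p = 0.4). Many ribosomal protein genes have processed pseudogenes that can share their reads, and no source used here gives how such reads were counted.

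Cell cycle genes were followed in 3 lists. CCND1, the cyclin D1 gene, stood at 35.7 and 29.5 in DMSO and 47.3 and 39.2 with estradiol, with no overlap (log2 change 0.40, 95% interval 0.07 to 0.74, adjusted p = 0.232, and 0.0455 without the second estradiol library). Of 30 G1 cyclin, CDK, inhibitor and E2F genes none was higher and 1 lower (3.33%, against 1.11% over all tested genes). That was CDKN2B, which encodes the CDK4 inhibitor p15, at 30.1 and 24.4 against 41.4 and 40.8 (-0.59, adjusted p = 0.0377, 0.179 and 0.234 without DMSO library 1 or 2 and 0.0556 without estradiol library 2). Of 47 DNA replication genes none was called, with a median of 0.16 and 34 positive changes, and of 35 mitosis genes none was called, with a median of -0.09 and 28 negative changes. PCNA (96.2 and 72.4 against 98.3 and 94.2) and TOP2A (87.7 and 79.4 against 76.7 and 76.7) are 2 abundant members, and their groups lay close together. Without the second estradiol library more replication genes were called higher, as were more of all tested genes.

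Potassium channel genes included some of the largest changes in both directions. Of 61 listed, 30 were tested, 5 were higher (16.7%) and 2 lower (6.67%). The median was 0.05, and 0 without the first estradiol library. The lower genes were 1 when either the second DMSO library or estradiol library 1 was left out. KCNK5, a pore-domain background channel gene, stood at 0.136 and 0.216 in DMSO and 3.15 and 3.11 with estradiol (log2 change 2.43, SE 0.178, adjusted p = 2.72e-06). KCNH1, the gene of the voltage-gated channel EAG1, went from 1.39 and 1.44 to 7.56 and 7.92 (2.11, SE 0.199, adjusted p = 1.93e-05). KCNF1, which encodes a modifier subunit, went from 1.75 and 1.45 to 6.18 and 4.75 (1.5), and KCNQ5, an M-channel subunit gene, from 0.358 and 0.347 to 1.34 and 1.45 (1.15). These 4 rises were from low levels. The fifth was KCNK15 (1.27 and 1.5 against 3.54 and 2.43, adjusted p = 0.0452). It missed the threshold without the first (0.244) or second (0.189) DMSO library or estradiol library 1 (0.312). KCNC1, among the lower genes, is described above. KCNK2 was the most abundant channel gene and did not pass (102.2 and 84.1 against 70.5 and 76.3).

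Ephrin signalling genes held 3 falls and 1 rise among 19 tested, and 1 fall when either DMSO library or estradiol library 1 was left out. Over all 4 libraries the falls made up 15.8% of the list and the rise 5.26%. EFNB2 is described above. EFNA1, another ligand gene, was lower at 72.2 and 77.7 against 115.6 and 106.5 (log2 change -0.56, adjusted p = 0.0441, and 0.251, 0.193 and 0.172 in those fits). EPHA4, a receptor gene, was lower at 9.64 and 11.2 against 15.0 and 16.8 (-0.59, adjusted p = 0.0196, and 0.0544, 0.245 and 0.119). EPHA8, another receptor gene, was at 0.150 and 0.0627 in DMSO and 0.926 and 1.24 with estradiol (1.38, adjusted p = 0.000523). In the TGF-beta and BMP list 4 of 37 were lower (10.8%) and none higher. TGFB3, a ligand gene, went from 78.4 and 83.7 to 55.5 and 53.0 (-0.57, SE 0.118, adjusted p = 0.0134, 0.0596 and 0.186 without DMSO library 1 or 2). BAMBI, a decoy receptor gene, stood at 122.2 and 123.0 against 68.1 and 76.2 (-0.76, adjusted p = 0.021) and SMAD3, a signal transducer gene, at 4.77 and 5.73 against 2.77 and 3.37 (-0.69, adjusted p = 0.0308). Both missed the threshold without the first DMSO library (0.109 and 0.0613), the second (0.175 and 0.346) or the first estradiol library (0.124 and 0.18). The list's 4 falls became 0 without either DMSO library, 2 without estradiol library 1 and 12 without estradiol library 2.

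Growth-suppressor and quiescence genes held 3 falls (8.57%) and 1 rise (2.86%) among 35. Their median was -0.21, which became -0.02 without the first estradiol library. TP53INP1, a target of p53, was lower at 15.8 and 24.4 against 29.3 and 39.6 (log2 change -0.78, adjusted p = 0.0257, 0.376 without the second DMSO library and 0.198 without the first estradiol library). BTG1, which encodes an antiproliferative regulator of mRNA decay, was lower at 77.0 and 74.0 against 121.2 and 106.8 (-0.59, adjusted p = 0.0431). The call of BTG1 ended without the first (0.277) or second (0.149) DMSO library or estradiol library 1 (0.109). TOB1, of the same protein family as BTG1, was higher at 199.5 and 257.2 against 134.1 and 141.4 (0.72, adjusted p = 0.0223, 0.145 and 0.138 without DMSO library 1 or 2). The falls became 1 without the first DMSO library, 0 without the second, 0 without the first estradiol library and 10 without the second.

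Of 19 luminal identity genes 3 were higher (15.8%) and none lower. The median was -0.13, and its sign turned to 0.02 without the first estradiol library. XBP1, a factor of secretory cells and of the unfolded protein response, stood at 363.9 and 305.0 in DMSO and 587.1 and 805.5 with estradiol (log2 change 1.04, SE 0.15, adjusted p = 0.000688). MYB, a transcription factor gene, went from 3.70 and 2.64 to 8.00 and 14.9 (1.66, SE 0.234, adjusted p = 0.000637). KRT19, a luminal keratin gene, stood at 1493 and 1484 against 3170 and 2142 (0.81, adjusted p = 0.021). It missed the threshold without the first (0.106) or second (0.169) DMSO library or estradiol library 1 (0.174). The list held 2 calls without any 1 of these libraries. KRT8 (1973 and 2005 against 3016 and 2801) and KRT18 (1174 and 1173 against 2065 and 1571) had no overlap between groups and did not pass, at adjusted p-values of 0.174 and 0.119. CD44, a surface receptor gene and the single call among 17 basal and stem-like markers, was higher at 10.8 and 16.5 against 7.62 and 7.21 (0.81, adjusted p = 0.0245, 0.0982 and 0.216 without DMSO library 1 or 2).

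Of 40 heat shock and cochaperone genes 4 were higher (10.0%) and none lower, with a median of 0.20. FKBP4, the gene of the HSP90 cochaperone FKBP52, which binds steroid receptors, went from 81.8 and 88.0 to 225.8 and 232.1 (log2 change 1.43, SE 0.168, adjusted p = 0.000116). With HSPB8 it made up the 2 calls left without either DMSO library. HSPD1, a mitochondrial chaperonin gene, stood at 89.1 and 88.4 against 117.2 and 132.4 (0.49, adjusted p = 0.0401, 0.178 and 0.277 without DMSO library 1 or 2). BAG1, a cochaperone gene, stood at 17.7 and 16 against 29.1 and 21.2 (0.55, adjusted p = 0.0336, 0.0918 and 0.337 without these, 0.193 without the first estradiol library). HSP90AB1 (738.9 and 770.4 against 921.3 and 1022) did not pass (adjusted p = 0.21). Without the second estradiol library the count was larger, as it was over all tested genes.

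With length and G+C trends removed from each library, 536 genes were called higher and 428 lower, against 291 and 154 without the removal. The counts of many lists changed too, and are to be read against these larger totals. The estrogen-induced list held 33 higher and the estrogen-repressed list 10 lower. Ribosome biogenesis held 35 higher, aminoacyl-tRNA synthetases 9, heat shock and cochaperone genes 9 and DNA replication 5, and none of these 4 lists held a fall. Nucleotide and one-carbon synthesis held 11 higher and 1 lower. Coregulators held 5 higher and 4 lower, steroid and retinoid receptors 2 and 3, luminal identity genes 5 and 2, and immediate early genes 3 and 1. Among lists with more falls than rises, ephrin signalling held 6 lower, growth suppressors 6, interleukin and cytokine receptors 5 and the TGF-beta and BMP list 5.

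**Figure D4:**
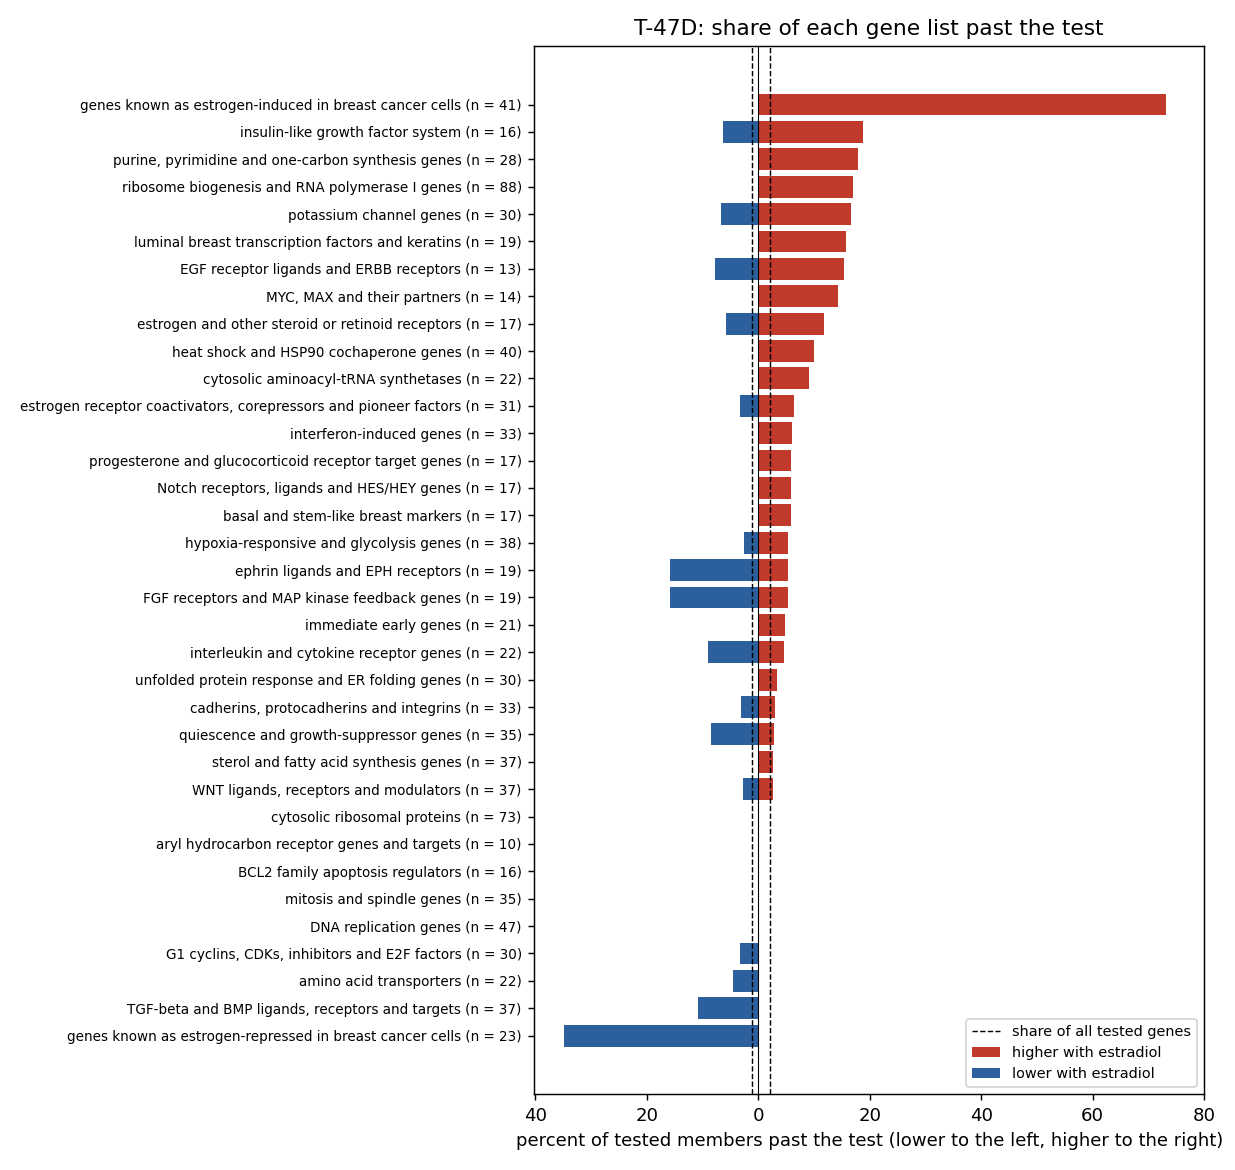
Share of the tested members of each gene list of 10 or more that passed the test, in percent on the horizontal axis, with higher genes to the right in red and lower genes to the left in blue. Dashed lines mark the shares over all tested genes (2.1% and 1.11%), and n is the number tested. The estrogen-induced list reaches 73.2% to the right and the estrogen-repressed list 34.8% to the left. Lists and members were chosen with earlier results of these data known.

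Several genes outside the lists also changed strongly, and the following were chosen after their values were seen. RUNX1, a transcription factor gene, went from 3.92 and 4.58 to 19.0 and 17.7 (log2 change 1.99, adjusted p = 2.99e-06). THBS1, the gene of the matrix protein thrombospondin 1, went from 32.4 and 35.7 to 131.4 and 111.2 (1.81, adjusted p = 0.000682). CADM1, a cell adhesion gene, went from 19.9 and 17.7 to 57.7 and 70.7 (1.74, adjusted p = 4.49e-06). Receptor genes at low levels rose as well. FLT4, the gene of the VEGF receptor VEGFR3, went from 1.05 and 0.890 to 5.46 and 4.60 (1.91), and NPY1R, a neuropeptide Y receptor gene, from 1.82 and 1.29 to 5.97 and 6.91 (1.76). SSTR2, a somatostatin receptor gene, went from 1.02 and 0.722 to 2.87 and 3.15 (1.36). KDM4B, a histone demethylase gene, stood at 21.2 and 24.0 in DMSO and 58.9 and 48.3 with estradiol (1.22, adjusted p = 0.000179). In each of these genes the lower estradiol value was above the higher DMSO value by a wide margin.

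The response was compared with that of ECC-1, endometrial cancer cells under the same treatment. A test of the difference between the lines, the interaction term of the same limma fit, called 239 of the 13827 genes (1.73%), 123 (0.89%) with a more positive change in T-47D and 116 (0.839%) with a more negative one. Which of these 2 counts was the larger changed between settings, with 121 and 132 under quantile normalization. Of the 445 genes called in T-47D, 134 were among them. In ECC-1 itself 262 genes were called (1.89%), of which 196 were higher (1.42%) and 66 lower (0.477%). The lists shared 33 genes, 7.42% of the T-47D calls and 12.6% of the ECC-1 calls, and 30 of these changed in the same direction.

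CXCL12, TFF1 and OLFM1 were listed at 0 in all 4 ECC-1 libraries, so their differences in change of 3.88, 2.81 and 2.55 (SE 0.312, 0.43 and 0.297) are those of T-47D alone. SUSD3 stayed at 0.135 to 0.308 scaled RPKM there and NKAIN1 at 0.158 to 0.326, and the differences were 2.66 and 2.36. KCNK5 was well measured in ECC-1, at 5.21 and 6.15 in DMSO and 6.17 and 6.88 with estradiol, and its change there of 0.19 did not pass (adjusted p = 0.626). The difference for KCNK5 was 2.24 (SE 0.251, adjusted p = 0.000212). AGR3, a secretory disulfide isomerase gene, went from 15.5 and 11.9 to 42.7 and 40 in T-47D (1.57) and stood at 0.680 and 0.559 against 0.0710 and 0.347 in ECC-1. The difference for AGR3 was 2.25 (adjusted p = 0.000238), and that for the troponin gene TNNI2 was 2.44 (adjusted p = 0.00225).

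In the other direction IL4R, which was lower in T-47D (0.122 and 0.207 without DMSO library 1 or 2), was higher in ECC-1, from 3.22 and 3.39 to 7.83 and 6.71 (log2 change 1.03, adjusted p = 0.000578). The difference was -1.63 (SE 0.197, adjusted p = 0.000291). VASN, which encodes a TGF-beta-binding membrane protein, showed the same contrast. It stood at 9.16 and 8.52 against 6.58 and 4.65 in T-47D (-0.63, adjusted p = 0.0461) and at 33.3 and 37.7 against 65.4 and 59.2 in ECC-1 (0.80, adjusted p = 0.0154). The T-47D call of VASN ended without the first (0.238) or second (0.216) DMSO library or the second estradiol library (0.0859). DEPDC6, the gene of the mTOR inhibitor DEPTOR, was higher in both lines. It went from 8.88 and 8.12 to 12.4 and 15.4 in T-47D (0.67, adjusted p = 0.0137, 0.0544 and 0.182 without DMSO library 1 or 2). In ECC-1 it went from 3.80 and 3.13 to 20.2 and 20.8 (2.41), a difference of -1.74 (adjusted p = 0.000212). KCNC1 (-1.53), C2orf54 (-1.93), S1PR3 (-1.38), the zinc finger gene HIVEP1 (-1.56) and the secreted protein gene CRISPLD1 (-1.36) fell in T-47D, with positive ECC-1 changes of 0.24 to 0.71 that did not pass there. KCNC1 was near 0 in ECC-1, at 0.0208 and 0.0193 in DMSO and 0.159 and 0.0856 with estradiol. Its difference is therefore mostly that of T-47D. In T-47D HIVEP1 went from 10.1 and 13.5 to 5.46 and 6.38 (-0.93, adjusted p = 0.00304, 0.0806 without the second DMSO library). CRISPLD1 went from 22.7 and 20.9 to 10.5 and 14.7 (-0.79, adjusted p = 0.0054). Without the first DMSO library the T-47D calls of CRISPLD1 (0.0636) and C2orf54 (0.0708) ended. All 16 of these differences between the lines passed in each of the 8 fits that left out 1 estradiol or DMSO library of either line.

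**Figure D5:**
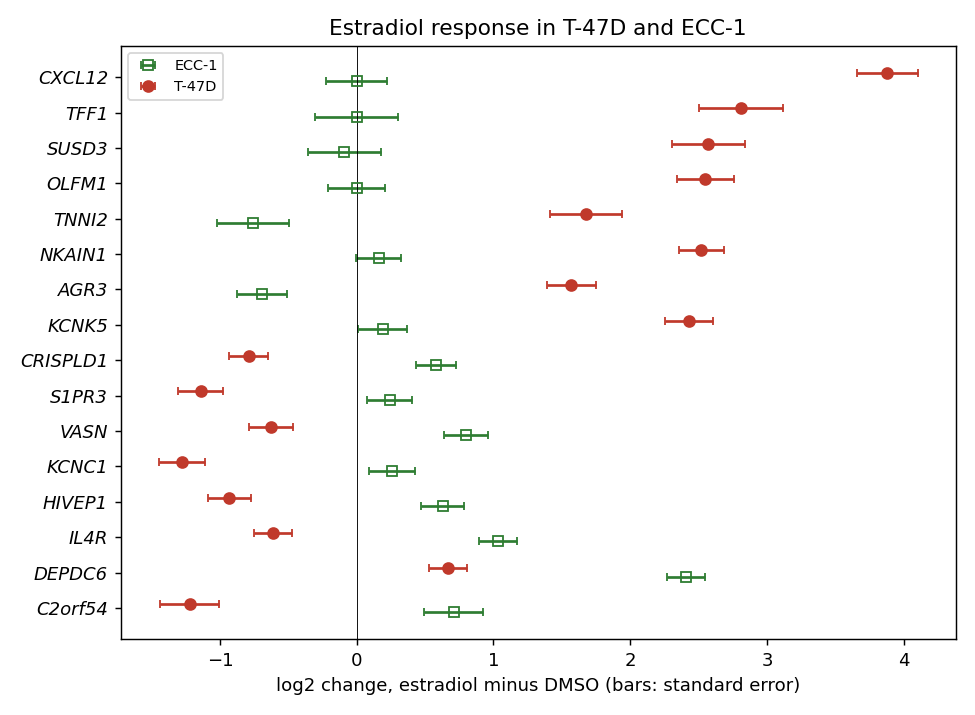
Log2 change from DMSO to estradiol (horizontal axis) in T-47D (red circles) and ECC-1 (green squares) for the 16 genes with the largest differences between the lines, with bars of 1 standard error. For CXCL12 the marks stand at 3.88 and 0, and for DEPDC6 at 0.67 and 2.41.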

How the data were processed

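For every library the authors deposited a table of RPKM, 1 value for each of 32062 RefSeq transcripts. Alignment was by Bowtie to hg19 per the submitters' processing notes. Versions, the counting of reads and the treatment of reads with several matches are not given in the sources used here. No counts were at hand, so count tests were not used.

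For each of 21453 symbols the transcript with the highest mean was kept. Libraries were scaled by the median ratio over 7547 genes with at least 5 RPKM throughout (factors 0.938 to 1.054). Genes with at least 1 RPKM in 2 libraries were tested on log2(value + 0.5) with limma 3.58.1 in R 4.3.3. The fit had 8 group means over 16 libraries, a mean-variance trend, 8 residual and 6.9 prior degrees of freedom, and Benjamini-Hochberg adjustment over all genes. The fit was tested on simulated data. Depth per library came from the steps between low values: about 62% of those below 10 reads came within 0.1 of a whole read, against 20% by chance.

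Named genes are the 16 largest rises and 12 largest falls past an adjusted p of 0.05 with a mean scaled RPKM of 1 or more, groups that do not overlap, and a call without the first estradiol library. Added were a panel of 10 genes, and up to 5 called and 3 other members of each list. The 8 largest differences between lines in each direction were also added, among genes called in T-47D. These genes also needed a mean of 1 scaled RPKM or more and a T-47D call without the first estradiol library. Members and lists were chosen with earlier results of these data known. Promoters came from RefSeq (GRCh38.p14), matched by RefSeq accession or symbol for 10784 of 13827 genes. The reference genome at hand is of another build than hg19, so gene coordinates of the files are not given. G+C content and length were matched for 13010 genes (94.1%). Alternatives covered scaling, pseudocount, filter, transcript choice, library weights, the replicate block, the libraries fitted and each library left out. Some genes that count in the totals are not reported here by name.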

Additional observations from a re-analysis of the deposited data

Results flagged for a closer look

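A test of the difference between T-47D and ECC-1 in their change with estradiol flagged 239 genes. The 16 described above, chosen among genes also called in T-47D, were among them. The change in T-47D minus that in ECC-1, on the log2 scale, was 3.88 for CXCL12, 2.81 for TFF1, 2.66 for SUSD3, 2.55 for OLFM1, 2.44 for TNNI2, 2.36 for NKAIN1, 2.25 for AGR3 and 2.24 for KCNK5. It was -1.93 for C2orf54, -1.74 for DEPDC6, -1.63 for IL4R, -1.56 for HIVEP1, -1.53 for KCNC1, -1.43 for VASN, -1.38 for S1PR3 and -1.36 for CRISPLD1. Adjusted p-values of these differences from limma lay between 2e-05 (CXCL12) and 0.00416 (S1PR3). The count of 239 was 2214 without the second T-47D estradiol library and 1715 without the second ECC-1 estradiol library, the fits in which the first estradiol library of a line stands alone.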

How the results depend on the processing

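Each alternative changed 1 choice. No named gene that was called changed sign, but the balance of calls did turn. Without the second estradiol library T-47D had 1555 higher and 1576 lower. The 123 more positive and 116 more negative differences between lines became 121 and 132 under quantile normalization, 86 and 87 at a pseudocount of 0.1, 98 and 113 with no filter, 48 and 65 at a mean of 5 RPKM or more, 24 and 36 with array weights, and 190 and 204 with trends removed. Leaving out either DMSO library of either line or the first T-47D estradiol library turned it too, as in 75 and 94 without the first T-47D DMSO library. The 445 calls of estradiol against DMSO became 92 with array weights (81 higher and 11 lower), 258 where only genes averaging 5 RPKM or more were tested, 127 when the 8 T-47D libraries were fitted alone (108 and 19) and 39 in a fit on the 4 libraries compared (39 and 0, with 897 genes at an unadjusted p under 0.05). With 1 library left out they ranged from 160 to 3131. Other scalings, pseudocounts, no filter and summed transcripts gave 364 to 502. The difference between lines, 239 genes, became 60 with array weights, 113 at a mean of 5 RPKM or more, 124 in a fit on the 8 estradiol and DMSO libraries of both lines, and 112 to 2214 with 1 library left out. Of the 28 leading rises and falls, 16 were tested and called at a mean of 5 RPKM or more and 14 were called in the fit on 4 libraries, where 2 residual degrees of freedom are left. A call without the first estradiol library was part of how these 28 were chosen, and with 1 of the other libraries left out 27 to 28 were called. Chosen after seeing the data, removal of length and G+C trends gave 964 calls (536 higher and 428 lower) and 394 for the difference between lines, and leaving out the first estradiol library of each line gave 592 and 206.

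Of the 101 named genes called, 19 were called in all 17 alternatives that followed single genes. In the fit on 4 libraries 80 were lost, with array weights 62 and in the fit on the 8 T-47D libraries 57. Same-numbered DMSO and estradiol libraries of T-47D deviated together with a correlation of 0.08, and the labels do not say that the number marks a batch. In both pairs library 1 minus library 2 ran with transcript length in the same direction (Spearman -0.31 for estradiol and -0.35 for DMSO). With the replicate block the calls were 537 (325 higher and 212 lower), and 311 for the difference between lines. Depth limits genes under about 1 RPKM, where 1 read moves the value most.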

Other observations

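Other gene lists held 0 to 2 calls in either direction in T-47D after 8 h of estradiol, where 2.1% of all tested genes were higher and 1.11% lower. Of 38 hypoxia-responsive and glycolysis genes 2 were higher (5.26%) and EPAS1 lower (2.63%), with a median change of 0.29 and 30 positive changes. PFKFB3, which encodes an enzyme that sets the rate of glycolysis, went from 21.0 and 12.3 scaled RPKM to 47.4 and 56.8 (log2 change 1.66, SE 0.245, limma adjusted p = 0.000916). CA12, a membrane carbonic anhydrase gene, went from 58.0 and 54.0 to 116.1 and 146.7 (1.21, SE 0.163, adjusted p = 0.000394). GAPDH (1072 and 789.3 against 1042 and 1107) and ENO1 (953.3 and 844.7 against 1009 and 827.6) overlapped between groups. Of 37 sterol and fatty acid synthesis genes 1 was higher (2.7%) and none lower. That was ELOVL2, which encodes an elongase of long polyunsaturated fatty acids, at 3.78 and 4.72 against 1.31 and 1.00 (1.52, adjusted p = 5.55e-05). In this list 25 changes were negative and 12 positive. The median of -0.08 became -0.31 without the first estradiol library. With length and G+C trends removed 1 gene was higher and 4 lower.

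Of 33 interferon-induced genes 2 were higher (6.06%). HERC6, which encodes a ligase of the HERC family, went from 1.96 and 1.65 to 3.24 and 4.75 (log2 change 0.95, adjusted p = 0.00305, 0.0623 without the second DMSO library), and IFI27 from 0.180 and 0.176 to 0.634 and 1.14 (1.01, adjusted p = 0.043). IFI27 missed the threshold without the first (0.174) or second (0.261) DMSO library or the second estradiol library (0.0856). Of 37 WNT pathway genes 1 was higher and 1 lower, 2.7% each, and 6 were lower with length and G+C trends removed. WISP2 was higher (0.779 and 0.367 against 2.06 and 1.27, adjusted p = 0.0262) and the receptor gene FZD4 lower (16.4 and 18.3 against 9.89 and 10.4, adjusted p = 0.0212). Without the second DMSO library these adjusted p-values were 0.37 and 0.234, and without the first estradiol library 0.231 and 0.0973, while without the first DMSO library that of FZD4 was 0.0691. Of 17 Notch pathway genes HEY2, a target of the pathway, was called higher (5.88% of the list), at 0.567 and 0.701 against 1.74 and 1.59 (0.93, adjusted p = 0.00823, 0.0832 without DMSO library 1 and 0.0651 without estradiol library 1). Of 16 BCL2 family genes and 10 genes of the aryl hydrocarbon receptor none passed the limma test on all 16 libraries. BCL2L1 stood at 128.0 and 120.1 against 123.8 and 104.6. With length and G+C trends removed, 1 BCL2 family gene was higher, and in the aryl hydrocarbon receptor list 1 was higher and 1 lower. Without the first estradiol library the aryl hydrocarbon receptor list was not free of calls either. FKBP5, a gene that the progesterone and glucocorticoid receptors raise, stood at 41.3 and 40.2 in DMSO and 38.0 and 44.5 with estradiol (adjusted p = 0.977). Among 22 amino acid transporter genes SLC7A8 was lower (4.55% of the list), at 18.0 and 15.3 against 23.4 and 29 (-0.63, adjusted p = 0.0274, 0.376 without the second DMSO library). Among 33 cadherin, protocadherin and integrin genes PCDH7 was lower and CELSR1 higher, 3.03% each, the latter at 40.4 and 33.8 against 16.5 and 21.6 (0.95, adjusted p = 0.0143, 0.159 without the first DMSO and 0.109 without the first estradiol library).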
